A study of Drosophila melanogaster with 2 samples.

Results

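Lipases hydrolyse dietary triglycerides so that fatty acids can be taken up by the gut. In Drosophila, enterocytes of the midgut secrete lipases into the lumen together with trypsins and other digestive proteases. Pancreatic-type (neutral) lipases form a large family that includes a tandem group of genes around CG6271. Acid lipases are related to gastric and lysosomal lipases of mammals; mag (magro, CG5932) encodes a secreted gut enzyme that acts on triglycerides and cholesterol esters, and Lip3 (CG8823) is another member of that family.

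A group of 8 lipase genes was examined, of 9266 genes measured on both arrays of the series. It consists of CG6271, CG6277, CG6283, CG6295, CG6296, CG8093, mag and Lip3. The group was selected on measured values of the same contrast, since CG6271 and CG6277 stood among the lowest genes of the whole table. The values below are therefore a description, without a test. Each of the 8 genes had 1 probe with a single gene in the platform annotation. On both arrays 6 genes were measured. Lip3 was measured on array 2 alone, and the probe for CG8093 had no value on either array.

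The series holds 2 two-colour arrays of polyA RNA from Drosophila melanogaster larvae. Each array set GMR crossed to GFP-dASF/SF2 against the control, GMR crossed to GFP-NLS, so both crosses carried GMR and a GFP fusion. GMR drives expression in the developing eye, dASF/SF2 is an SR protein that acts in splicing, and NLS is a nuclear localisation signal. The larval stage, tissue, sex and number of animals were not given in the sources used here. Nor was it stated whether the arrays came from separate RNA extracts, so the spread between them may be technical.

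Per the labels, array 1 carried the control in Cy3 and dASF/SF2 in Cy5, and array 2 the reverse. A log ratio of the 2 channels was deposited for each probe, with neither the log base nor the channel in the numerator given. The ratios were read as Cy5 over Cy3, the values of array 2 were turned in sign, and the median of each array was set to 0. Read so, a negative value stands for less RNA with dASF/SF2 than in the control; were Cy3 the numerator, it would stand for more. Directions are therefore given as the negative and positive side, and folds for base 2 and for base 10. In bulk RNA, fewer cells of a type and less RNA per cell cannot be told apart.

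Over 10912 probes measured on both arrays, the turned values were nearly uncorrelated between arrays (r = 0.0244, across probes, which are not independent replicates). Their SD was 0.258 on array 1 and 0.176 on array 2. The median of probe means was 0.0045. The probe for SF2, the gene of dASF/SF2, lay at -0.031 on array 1 and -0.128 on array 2. Whether that probe reads the transgene was not given, so it does not check the labels.

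All 6 lipase genes measured on both arrays lay on the negative side of both. Before turning, the deposited log ratios of these 6 genes were negative on array 1 and positive on array 2. Among all tested probes, 23.1% were negative on both arrays. At or below -0.25 on both arrays lay 6 of the 6 lipase probes and 1.15% of all probes, and at or below -0.5 on both lay 2 of the 6 and 0.183% of all. Nothing is read from these shares, because the group was chosen with the values known. The median of the 6 means was -0.397, with array medians of -0.353 and -0.464. In folds this is 1.32 if the log base is 2 and 2.49 if it is 10. Limma called 0% of the 10912 probes (0 probes, none of them a lipase), with 730 probes at an unadjusted p under 0.05 and a lowest adjusted p of 0.419.

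**Figure D1:**
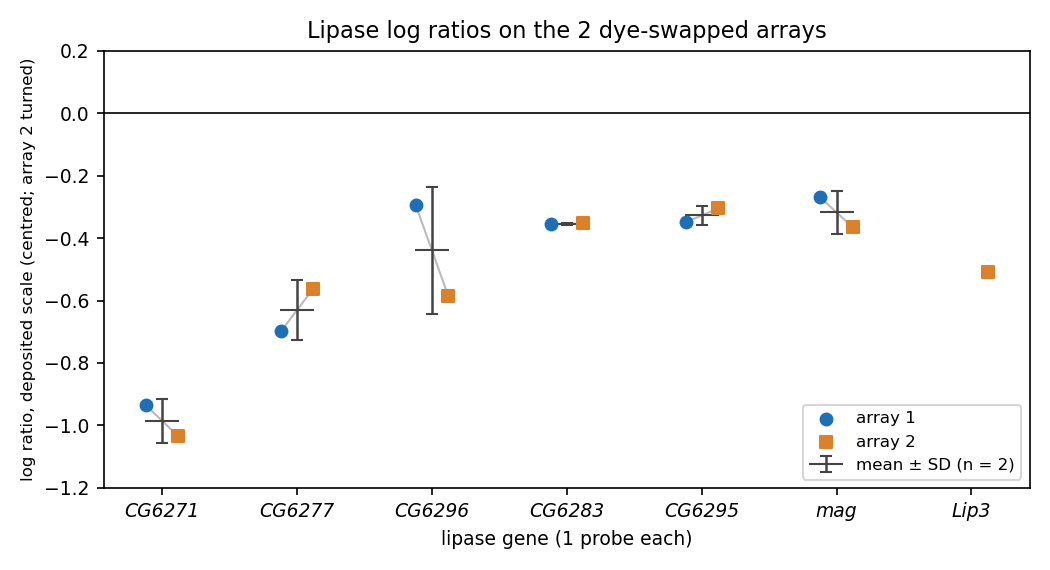
Centred log ratios (vertical axis, deposited scale, array 2 turned) of the lipase genes on array 1 (circles) and array 2 (squares), with the mean and SD of both arrays. CG6271 lies lowest at -0.936 and -1.035, the other 5 genes with both values lie between -0.699 and -0.27, and Lip3 has 1 value, -0.51.

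The 5 pancreatic-type genes of the tandem group had means from -0.986 to -0.328. CG6271, the gene at the end of the row, had deposited log ratios of -0.934 on array 1 and 1.045 on array 2. After centring and turning these became -0.936 and -1.035, with a mean of -0.986 ± 0.070 (SD, n = 2). It was the lowest of all 10912 probes on array 2, number 43 from the lowest on array 1 and number 4 from the lowest by mean. As a fold, the mean is 1.98 for base 2 and 9.67 for base 10. No other probe lay at or below -0.936 on both arrays, and on the positive side 0 probes lay as far out on both. For the other 5 lipases more probes lay as far out on the positive side of both arrays than on the negative side. The counts, each with the lipase itself on the negative side, were 16 against 12 for CG6277, 127 against 66 for CG6283, 198 against 90 for CG6295, 210 against 94 for CG6296 and 259 against 106 for mag.

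CG6277, beside CG6271, had deposited log ratios of -0.697 and 0.572. The centred and turned values were -0.699 and -0.562, with a mean of -0.631 ± 0.097 (SD, n = 2), which is a fold of 1.55 for base 2 and of 4.27 for base 10. It ranked 97 from the lowest on array 1 and 23 on array 2. Both arrays of CG6277 lay above both arrays of CG6271, by 0.237 on array 1 and 0.473 on array 2 (mean difference 0.355 ± 0.167, SD, n = 2).

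CG6283, next in the row, gave the closest agreement between arrays. Its values were -0.356 and -0.353, a mean of -0.355 ± 0.00212 (SD, n = 2), or folds of 1.28 (base 2) and 2.26 (base 10). The deposited values behind it were -0.354 and 0.363.

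CG6295 encodes a triglyceride lipase of the midgut. It had deposited log ratios of -0.348 and 0.315, which became -0.35 and -0.305. Its mean was -0.328 ± 0.0318 (SD, n = 2), with folds of 1.25 (base 2) and 2.13 (base 10). CG6283 lay lower than CG6295 on both arrays, by 0.006 on array 1 and 0.048 on array 2, a mean difference of 0.027 that did not exceed its SD of 0.0297.

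CG6296 had the widest gap between arrays of the 6 genes. The deposited log ratios were -0.293 and 0.594, and the centred and turned values -0.295 and -0.584. Its mean was -0.44 ± 0.204 (SD, n = 2), with folds of 1.36 (base 2) and 2.75 (base 10). On array 1 it ranked 682 from the lowest and on array 2 it ranked 19. In the order of means it lay between CG6277 and CG6283, and its 2 values overlapped the ranges of both neighbours in that order.

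Of the acid lipases, mag was the only gene of the group with a value on both arrays. Its deposited log ratios of -0.268 and 0.376 became -0.27 and -0.366. The mean was -0.318 ± 0.0679 (SD, n = 2), with folds of 1.25 (base 2) and 2.08 (base 10). In the order of means mag lay highest of the 6, and it differed from CG6295 by 0.0095 with an SD of 0.0997, within the spread of the arrays. It ranked 796 from the lowest on array 1 and 120 on array 2.

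Lip3 had 1 deposited log ratio, 0.52 on array 2, which became -0.51 and has no SD. The fold is 1.42 for base 2 and 3.24 for base 10. Among 2582 probes measured on array 2 alone it ranked 46 from the lowest, and among all 13494 probes with a value on that array it ranked 79. Its side is the same as that of the 6 other measured genes on array 2. A separate probe annotated Dlip3 belongs to CG12767, not to Lip3, and was not counted.

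**Figure D2:**
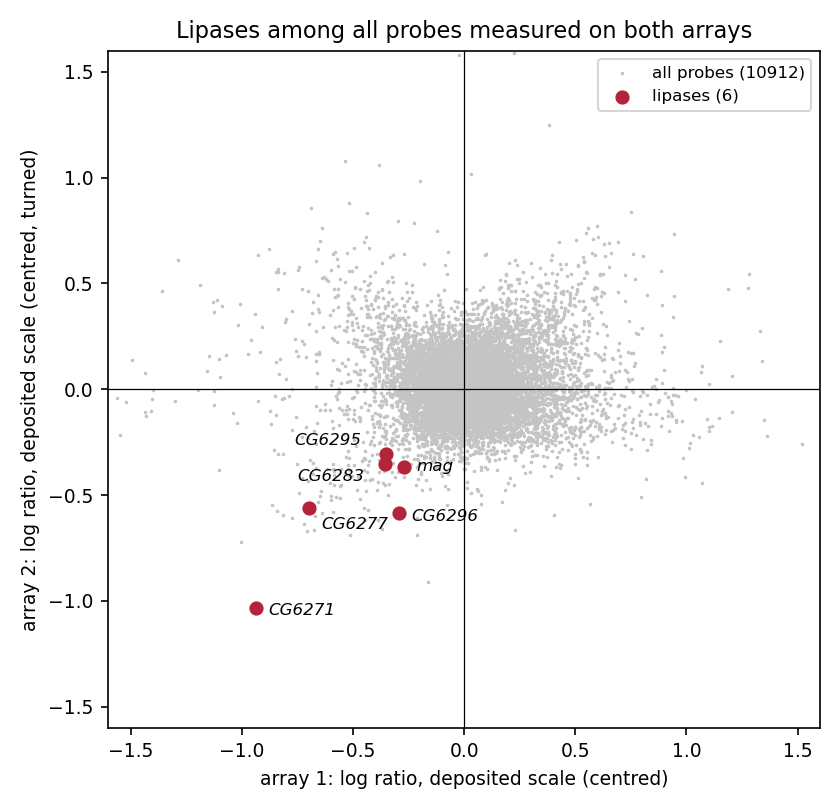
Each grey point is 1 of 10912 probes, with its centred log ratio on array 1 (horizontal axis) and its centred, turned log ratio on array 2 (vertical axis), both on the deposited scale; 9 probes lie outside the axes. The 6 lipases (red) lie in the lower left part, where both arrays are negative, and CG6271 lies apart from the other points there.

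The 5 tandem genes of the group are part of a row of 7 adjacent lipase genes on chromosome arm 3R, according to the gene order of the Release 6 reference table. The table lists the synonyms DmelL1 to DmelL7 for them. From CG6296 the row runs through CG6295, CG17192, CG17191, CG6283 and CG6277 to CG6271. mag lies on arm 3L, CG8093 on arm 2R, and Lip3 on arm 3R away from the row. No genome build was given for the array, so no positions are printed.

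The genes in the middle of the row also belong to the pancreatic-type family and lay closer to 0 than the 5 genes of the group on the arrays that measured them. CG17191 had 0.244 on array 1 and -0.078 on array 2, a mean of 0.083 ± 0.228 (SD, n = 2). CG17192 was measured on array 2 alone, at -0.106. These genes were left out of the group with their values known, so the contrast with the others is a description. The probe sequences were not used here, and how far a probe also reads related genes of the row was not tested.

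Outside the row, CG31077 beside CG6296 had -0.662 on array 1 and -0.158 on array 2, with a mean of -0.41 ± 0.356 (SD, n = 2). TwdlT, a cuticle protein gene of the Tweedle family beside CG6271, had 0.092 and -0.034. CG6271 thus lay beside a gene whose arrays lay on opposite sides of 0.

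**Figure D3:**
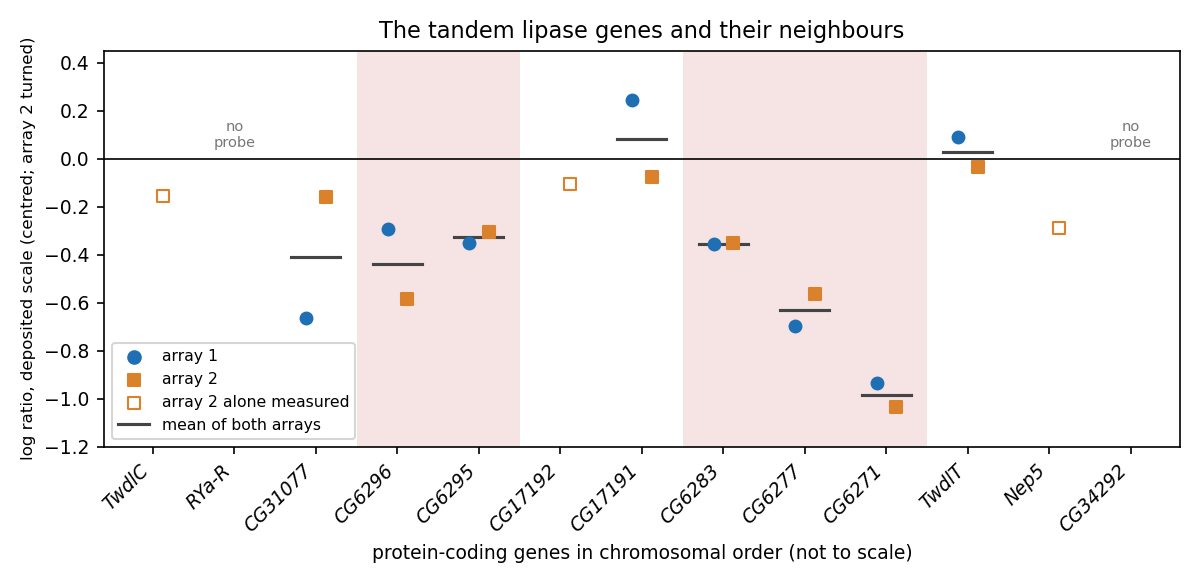
Log ratios (vertical axis, deposited scale, centred, array 2 turned) of the protein-coding genes around the lipase row, in chromosomal order along the horizontal axis and not to scale. Shaded genes belong to the group and have all filled points below 0, from -0.295 to -1.035; CG17191 and TwdlT have means of 0.083 and 0.029, and open squares were measured on array 2 alone.

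Other genes of both lipase families were measured to describe how the group lies among them. Of 26 further pancreatic-type genes, 24 had a probe and 14 were measured on both arrays. Of these 14, 2 were negative on both arrays, 4 positive on both and 8 on opposite sides, with a median of 0.0188. CG5966 (-0.194 ± 0.130, SD, n = 2) and CG18641 (-0.179 ± 0.0629) were the genes negative on both. CG10116 had the lowest mean, -0.677, from -1.493 on array 1 and 0.139 on array 2, so its arrays lay on opposite sides. The highest means were those of CG7367 (0.287 ± 0.0445), CG14034 (0.13 ± 0.243) and CG6431 (0.124 ± 0.0594).

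Of 20 further acid lipase genes, all had a probe and 9 were measured on both arrays. Negative on both were 3, positive on both 2 and on opposite sides 4, and the median was -0.015. Lip4, known from fly studies as a target of the transcription factor foxo, lay lowest at -0.167 ± 0.0537 (SD, n = 2). CG11608 (-0.092 ± 0.229) and CG17097 (-0.055 ± 0.167) followed, each with arrays on opposite sides. The highest were Lip2 (0.14 ± 0.373), CG2772 (0.127 ± 0.247) and CG11406 (0.109 ± 0.075). Of the 7 acid lipase genes measured on array 2 alone, 6 were negative, down to -0.357 for CG18301. Among the 8 further pancreatic-type genes measured on array 2 alone, 4 were negative. The share over all such probes was not computed, so nothing is read from these counts.

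Across both families, 5 of 23 further genes measured on both arrays were negative on both, beside 23.1% of all probes. At or below -0.25 on both lay 0 of the 23, beside 1.15% of all probes, and nothing is read from these counts. The nearest was CG18641, whose higher value was -0.134, against -0.27 for mag, the highest such value in the group. The group and these genes were separated with values known, and the difference was not tested.

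Of 10 genes known from fly studies to regulate gut lipases, 6 were measured on both arrays, with a median of 0.041. Negative on both were 3, beside 23.1% of all probes, positive on both 1 and on opposite sides 2. Nothing is read from these counts. Hr96, the nuclear receptor that mag expression depends on, had -0.014 and -0.064, a mean of -0.039 ± 0.0354 (SD, n = 2). The sugar-sensing factors Mondo and bigmax had means of 0.121 ± 0.0233 and -0.048 ± 0.0198. The activin ligand gene daw had -0.0485 ± 0.0304. Its receptor gene babo (0.27 ± 0.46) and the signal transducer gene Smox (0.125 ± 0.266) had arrays on opposite sides, with 0.595 for babo and 0.313 for Smox on array 1 against -0.055 and -0.063 on array 2. On array 2 alone, foxo had -0.123 and the sugar-response factor gene sug -0.241.

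Genes of fat synthesis, storage and transport inside the body had a median of -0.036 over the 11 of 14 measured on both arrays. Negative on both were 5, beside 23.1% of all probes, positive on both 2 and on opposite sides 4. Nothing is read from these counts. The lowest were apolpp, which encodes the lipophorin that carries lipid in the hemolymph (-0.366 ± 0.186, SD, n = 2), the lipid transfer particle gene Apoltp (-0.293 ± 0.161) and the fatty acid synthase gene FASN1 (-0.253 ± 0.0799). The adipose triglyceride lipase gene bmm had the highest mean, 0.29, but its arrays lay at 0.996 and -0.415. Seipin (0.185 ± 0.17) and the diacylglycerol acyltransferase gene mdy (0.124 ± 0.0679) were positive on both.

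Other digestive enzymes of the midgut were set beside the lipases, as the RNA was measured in bulk and its tissue was not given. Over 30 midgut markers (trypsins, Jonah proteases, amylases and a maltase), 23 were measured on both arrays. Of these, 14 were negative on both, 3 positive on both and 6 on opposite sides, with array medians of -0.431 and -0.225. Among all probes, 23.1% were negative on both. At or below -0.25 on both arrays lay 11 of the 23 markers, beside 1.15% of all probes. At or below -0.5 on both lay 8, beside 0.183%. These lists were chosen with earlier results known, so nothing is read from the counts. The lowest means were those of epsilonTry (-1.004 on array 1 and -0.724 on array 2), betaTry (-0.843 and -0.575) and Jon25Biii (-0.814 and -0.594). Positive on both were Amy-d (0.213 on array 1 and 0.465 on array 2), Mal-A1 (0.059 and 0.335) and lambdaTry (0.362 and 0.062). Amy-p had -0.189 and 0.169, so neither amylase nor the maltase was negative on both. Trypsins had a median of -0.087 over 9 genes, 6 of them negative on both arrays, and Jonah proteases with yip7 a median of -0.542 over 11 genes, 8 of them negative on both. Without turning array 2, an alternative added after the values were seen, the medians were 0.0232 for the lipases, -0.066 for trypsins and -0.0335 for the Jonah proteases with yip7. The order of the 3 groups therefore depends on the reading of direction, and their differences were not tested.

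Fat body markers had a median of -0.0892 with 3 of 4 measured genes negative on both arrays, and salivary glue genes a median of -0.174 with 5 of 6 negative on both. The share over all probes was 23.1%. At or below -0.25 on both arrays lay 0 genes of either list, beside 1.15% of all probes, and nothing is read from these counts. The part of tissue makeup in the lipase values was not tested. Limma called 0 genes in each of these lists, as over the whole table.

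**Figure D4:**
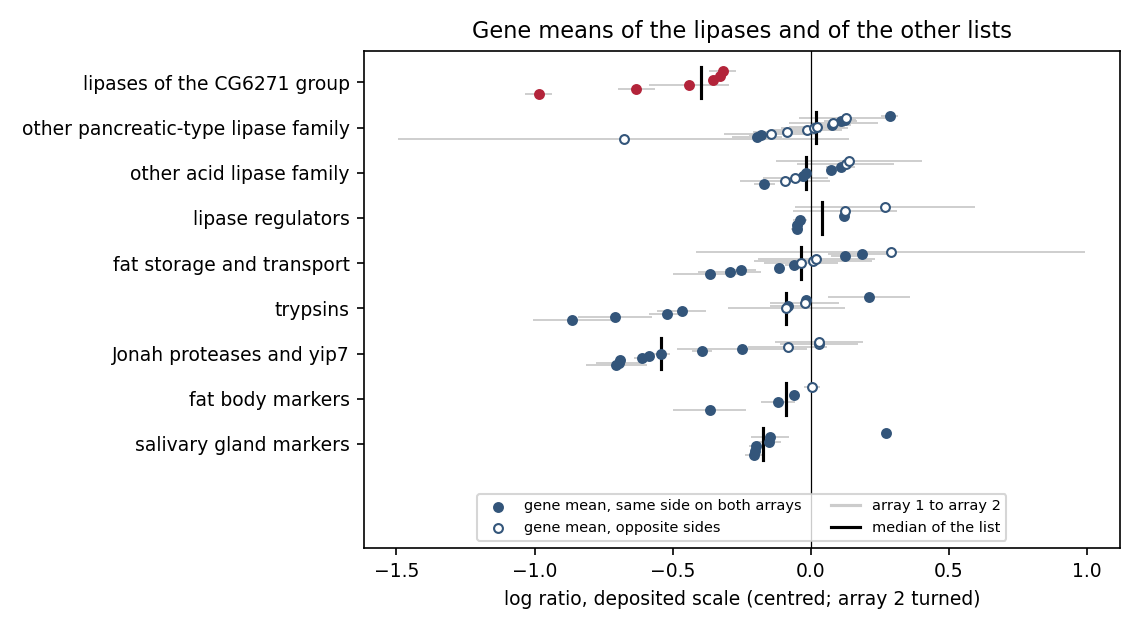
Gene means (points, horizontal axis, deposited log scale, centred, array 2 turned) by list, with a grey line from array 1 to array 2 and a black bar at each list's median; open points have arrays on opposite sides of 0. The lipases have a median of -0.397 and no open point, while the other lipase families have medians of 0.0188 and -0.015. The Jonah proteases with yip7 have a lower median, -0.542, and the salivary gland markers also have no open point.

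Likeness was measured as the Euclidean distance between the values on the 2 arrays, over genes measured on both. Nearest to CG6271 was epsilonTry, a trypsin, with -1.004 and -0.724 at a distance of 0.318. The serine protease gene Jon65Aiii (0.431), CG10912 (0.452), the mucin gene Muc18B (0.452) and the protease gene yip7 (0.454) followed. On array 1 epsilonTry lay further out than CG6271 at -0.936, and the other 4 lay closer to 0.

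Around the median point of the group, at -0.353 and -0.464, the nearest genes lay within 0.0389. They were CG7715 (-0.356 and -0.454), the cuticle protein gene Ccp84Ag (-0.34 and -0.447), CG13135 (-0.364 and -0.444), spen (-0.344 and -0.501) and p24-2 (-0.39 and -0.476). None of the 5 is a lipase gene of the lists used here. With n = 2 arrays, such a match rests on 2 values a gene.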

How the data were processed

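The authors deposited a table of log ratios with 15744 probes and 2 arrays. The sources used here name no scanner, background correction, normalization, log base or numerator channel. Empty cells (3996 on array 1, 1450 on array 2) and 7 cells coded -10000 were treated as missing. The probes, in the order of their numbers, were cut into 24 equal blocks, which were taken as the printing blocks. Features without a gene name at 40 places that repeat in all 24 blocks (960 features) were left out. Each array was centred on the median of its remaining values and the sign of array 2 was turned. The platform annotation gave a single symbol to 13147 probes, of which 12519 were updated through the reference table of Release 6; 0 value columns were left unused.

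Limma 3.58.1 in R 4.3.3 tested all 10912 probes against 0, with Benjamini-Hochberg adjustment at 0.05 and 1 residual degree of freedom. The step was tested on simulated data with an equal spread for all probes and a shift larger than any lipase value. Whether it could call changes of the size seen here was not tested. No p-value is given for a lipase. Named genes were the 8 lipases, their chromosomal neighbours, and the 3 lowest and 3 highest genes of the other lipase, regulator and fat storage lists. For the fat body and salivary gland lists only summaries are given. The 5 genes nearest to CG6271 and to the median point were also named. Genes outside the row with a value on array 2 alone, and the midgut markers named with their list, Amy-p included, were added after their values were seen. The members and lists were chosen with earlier results of these data known. Alternatives covered direction, centring, printing blocks, single arrays, log base, missing cells, moderation and gene means.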

Additional observations from a re-analysis of the deposited data

How the results depend on the processing

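The number of lipases negative on both arrays stayed at 6 without centring, with centring on all features and with centring within printing blocks, and the median stayed within the spread of the arrays there. The array medians were 0.002 and 0.01, or -0.008 and 0.007 over all features, and the lipase value nearest to 0 was -0.27. Without centring or with centring on all features the count could therefore not change. The lipases were also chosen on these values, so nothing is read from the unchanged count. Array 2 alone gave 7 negative lipases, Lip3 included, and array 1 alone gave 6. Each array was centred on its own median, so a negative value on a single array is common. The share over all probes was not computed for single arrays, and nothing is read from these counts. If the deposited ratios ran by genotype and not by dye, so that array 2 is not turned, 0 of 6 lipases were negative on both arrays, and the median became 0.0232, with gene means from -0.0685 to 0.144; every statement on the side of the lipases therefore rests on the values running by dye. Limma called 0 probes under each alternative, with a lowest adjusted p between 0.239 and 0.981. Probes beyond 0.5 on the same side of both arrays numbered 55, against 33 without turning array 2, 429 at a limit of 0.25 and 0 at a limit of 1. The 2 arrays limit the precision, and no signal over background was given.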

Other observations

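The neighbours of the 3 lipase genes outside the tandem row gave values on both sides. Beside Lip3, CheA87a had 0.046 on array 1 and -0.021 on array 2. CG11808, beside CG8093, had 0.191 and 0.083, both positive, and atk beside mag had -0.284 on array 2 alone. CG18258, a pancreatic-type gene outside the group, had -0.613 on array 2 alone, lower than Lip3 at -0.51 on that array.

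Over all probes measured on both arrays, 125 lay at or below -0.25 on both, 304 at or above 0.25 on both and 289 beyond 0.25 on opposite sides. At 0.5 the numbers were 20, 35 and 33.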
